A study of Solanum lycopersicum and Solanum pennellii with 32 samples.

Results

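The 217 transcripts described here were chosen from M82 tomato roots because limiting phosphate went with higher levels at the root tip without a comparable difference in the root midsection. They are 0.623% of the 34843 gene models counted. Levels are in CPM, a gene's count as a share of the total count of its library, per 1000000 counts. A gene entered when every limiting tip library lay above every sufficient tip library and the mean was at least 5 CPM in limiting tips. Its ratio of means, each with 1 CPM added, also had to be 2 or more for limiting over sufficient tips. That ratio had to stay below 2 for limiting over sufficient midsections and below 4 for sufficient midsections over sufficient tips. All these values chose the members, so the M82 results below describe them and carry no test.

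The libraries came from seedlings aged 8 to 10 days of Solanum lycopersicum cv M82, the cultivated tomato, and of Solanum pennellii LA0716, a related wild tomato, named Pennellii below. All seedlings, at limiting and at sufficient phosphate, carried a 35S:TRAP construct, in which a promoter active in most plant cells drives a tag for ribosomes, and the labels give total RNA as the extracted molecule. Each species had 4 libraries of limiting tips, 4 of sufficient tips, 4 of limiting midsections and 4 of sufficient midsections, each pooled from 30 to 40 plants. Limiting seedlings grew on a medium without added phosphate and sufficient seedlings on the same kind of medium with phosphate. Tip pieces were 1 cm long and midsection pieces, from midway along the root, were about 2 cm long.

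Phosphate is poorly mobile in soil, and plants short of it switch on transporters, secreted phosphatases and lipid remodelling, largely through transcription factors of the PHR family that SPX proteins restrain when phosphate is plentiful. The root tip holds the dividing and elongating cells and senses external phosphate, whereas the midsection holds mature cells with root hairs and formed xylem. In Arabidopsis, low phosphate slows growth of the primary root at its tip. The IDs of the members are paired with no name or description in the sources used here, so each gene is given by ID, with no function.

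The M82 limiting tip libraries held 4806020, 4874528, 4223900 and 9737420 counts, against 4456958, 34103546, 1553874 and 1406650 in sufficient tips. Sufficient tip replicate 4 stood apart. Its median over the members was 2.84 CPM, against 12.8, 14.51 and 13.5 CPM in the other sufficient tips, and 57 members had no count there (an estimate under 0.5), against 20, 0 and 19. It was the lowest of the 4 sufficient tips in 149 of the 217 members, and in 47.7% of the genes tested. Without it the rule found 202 genes, of which 134 were members. Over the 217 members the median tip ratio was 2.52 with it and 2.22 without it, where 81 members fell under the ratio of 2. In whole pieces of root, fewer cells of a type and less RNA per cell cannot be told apart.

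A set of 172 genes, with no member among them, was chosen for higher levels in sufficient midsections than in sufficient tips. These were the genes at least 16-fold higher in sufficient midsections than in sufficient tips, with a mean of at least 5 CPM and no overlap. Their summed level was 3616 to 4545 CPM in limiting tips. In sufficient tips it was 820, 777, 950 and 318 CPM, so replicate 4 was the lowest here too. In midsections it was 13212 to 15852 CPM at limiting and 20853 to 25364 CPM at sufficient phosphate. The set was chosen for low levels in these sufficient tips and high levels in these sufficient midsections. Its higher sums in limiting tips and lower sums in limiting midsections are thus in part built into the choice. The rule's ceiling for sufficient midsections over sufficient tips also kept members out of the set. No phosphate response of midsection tissue is read from these sums, and the part of a midsection signal in the members' values was not tested.

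Summed over the 217 members, the limiting tip libraries held 12450, 11445, 12007 and 13418 CPM, against 5070, 5701, 5107 and 2977 CPM in sufficient tips. The tip groups did not overlap, as the rule required of every one of the 217 members and as was the case in 4.62% of all genes tested. Limiting midsections held 13068 to 13947 CPM and sufficient midsections 10945 to 11672 CPM, so sufficient tips were the low group of the 4. Of the 217 members, 185 had their lowest group mean in sufficient tips. The highest mean was in limiting tips for 125 members, in limiting midsections for 51 and in sufficient midsections for 41. The median member had 30.7 CPM in limiting tips, 11.0 CPM in sufficient tips, 22.2 CPM in limiting midsections and 22.9 CPM in sufficient midsections.

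**Figure D1:**
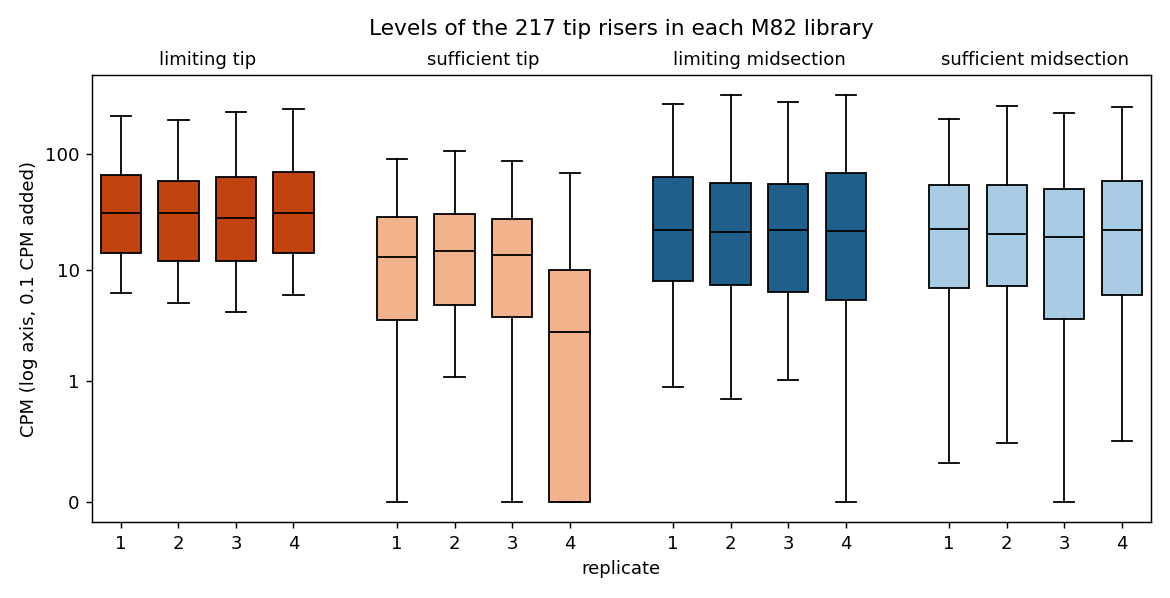
Box plots of the CPM of the 217 members in each of the 16 M82 libraries, on a log axis with 0.1 CPM added; boxes span the quartiles, lines mark medians and whiskers run from the 5th to the 95th percentile. Medians of the sufficient tips lie at 12.8, 14.51, 13.5 and 2.84 CPM, below those of the limiting tips and of both midsection groups.

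Most members were modest risers. The tip ratio lay between 2 and 2.5 in 105 members, between 2.5 and 3 in 44, between 3 and 4 in 33, between 4 and 8 in 27, and at 8 or more in 8. The gap between the groups was small. The lowest limiting tip library stood a median of 1.25-fold above the highest sufficient tip library with 1 CPM added, at least 2-fold in 21 members and less than 1.1-fold in 57. Without sufficient replicate 2 the gap was at least 2-fold in 44. Replicates spread more in the sufficient groups, which also held the shallowest M82 libraries. Sufficient midsection replicate 3 had 1084652 counts, and sufficient tip replicates 3 and 4 had 1553874 and 1406650. Every limiting M82 library had at least 4223900, and the part of depth in the spread was not tested. The median coefficient of variation was 0.269 in limiting tips and 0.614 in sufficient tips, and it was 0.274 in limiting midsections and 0.5005 in sufficient midsections.

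Several of the members with the largest tip ratios were nearly silent in the other 3 groups. Solyc09g008670.3.1 had 7.07, 56.8, 90.2 and 108 CPM in limiting tips, against 2.69, 1.11, 0 and 0.711 CPM in sufficient tips. Limiting replicate 1 was far lower than the other limiting tips but still above every sufficient one. Midsections held 0.134 to 3.53 CPM at limiting and 0 to 0.922 CPM at sufficient phosphate, and its tip ratio of 31.2 was the largest of the 217.

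Solyc10g085170.2.1 had the cleanest separation. It had 24.3, 54.8, 75.0 and 57.5 CPM in limiting tips, against 0.897, 1.08, 2.57 and 0.711 CPM in sufficient tips. All 4 limiting tips were high and all 4 sufficient tips were low, with a gap of 7.09-fold between the groups. Midsections held 0 to 1.03 CPM at limiting and 0.118 to 0.922 CPM at sufficient phosphate, overlapping each other.

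Solyc07g006570.3.1 had 9.16, 37.7, 22.02 and 31.9 CPM in limiting tips, against 0, 2.46, 0 and 0 CPM in sufficient tips. Sufficient replicate 2, the deepest library, was the one sufficient tip with a count. Solyc04g015030.3.1 had 6.87, 12.9, 22.02 and 17.2 CPM in limiting tips, against 0, 0.176, 0 and 0 CPM in sufficient tips. Here too the deepest sufficient tip alone held counts, 6 in all, and the added 1 CPM holds the ratio of such a gene down. Its midsections stayed under 1 CPM in all 8 libraries, at 0 to 0.670 CPM at limiting and 0 to 0.220 CPM at sufficient phosphate.

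Solyc01g080570.3.1 was present in all 4 groups, though not in every library. It had 23.3, 21.95, 92.1 and 58.9 CPM in limiting tips, against 2.02, 3.87, 3.22 and 0 CPM in sufficient tips. Midsections had 8.20, 13.8, 4.64 and 10.2 CPM at limiting and 5.20, 10.7, 0.922 and 4.94 CPM at sufficient phosphate, and the midsection groups overlapped. All lay between the tip groups except sufficient midsection replicate 3, which lay among the sufficient tips. Of the 10 members with the largest ratios, the other 5 were Solyc06g060710.3.1, Solyc02g088100.3.1, Solyc06g084370.1.1, Solyc05g052340.3.1 and Solyc06g071540.3.1. Their limiting tip means ran from 7.40 to 14.6 CPM and their tip ratios from 7.77 to 9.60, while their sufficient tip means were 0.0806 to 0.952 CPM. In 7 of the 10, sufficient replicate 4 had no count. All 10 met the rule without that replicate.

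**Figure D2:**
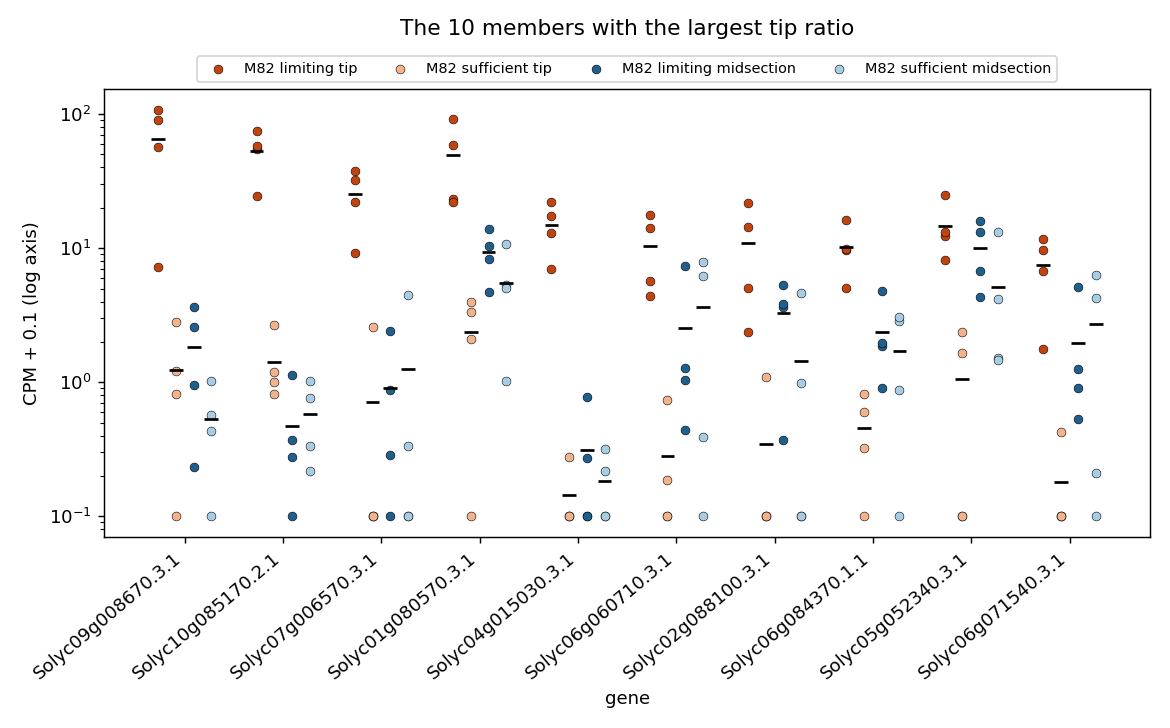
CPM with 0.1 added, on a log axis, of the 10 members with the largest tip ratio; each point is 1 M82 library and each bar the mean of the 4 libraries of a group. The limiting tips lie above the sufficient tips in every gene, and points at the floor are libraries without a count.

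A further member of this kind, Solyc11g010340.2.1, was too low to be tested in M82. It had 12.5, 1.03, 3.55 and 4.52 CPM in limiting tips and a single count, in replicate 2, in sufficient tips. In all, 18 members averaged under 1 CPM in sufficient tips, and 14 when sufficient replicate 4 was left out. Of the 18, 4 were also at least 2-fold higher in limiting tips than in limiting midsections, with no overlap, the measure used further on.

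The most abundant members were found in all 16 M82 libraries. The 5 with the highest limiting tip means were Solyc07g055060.3.1, Solyc02g086880.3.1, Solyc03g096840.3.1, Solyc02g065680.3.1 and Solyc06g076140.3.1. Because reads came from 3' ends, these levels do not scale with transcript length. Solyc07g055060.3.1 had 361, 473, 485 and 532 CPM in limiting tips, against 201, 218, 246 and 69.0 CPM in sufficient tips. The groups did not overlap, and sufficient replicate 4 was far below the other sufficient tips. Its midsection groups overlapped, with 337, 500.4, 444 and 629.7 CPM at limiting and 546, 364, 177 and 386 CPM at sufficient phosphate.

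Solyc02g086880.3.1 had 294, 338, 308 and 343 CPM in limiting tips, against 90.9, 116, 121 and 168 CPM in sufficient tips. Sufficient replicate 4 was the highest of its group here, not the lowest, and the tip ratio was 2.57. In midsections all 4 limiting libraries, at 363 to 477 CPM, lay above all 4 sufficient ones, at 174 to 326 CPM, a ratio of 1.60 that stayed under the rule's ceiling of 2. This member was thus higher at limiting phosphate in both positions.

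For Solyc03g096840.3.1 the tip values were 357, 227, 231 and 443 CPM at limiting and 60.8, 123, 152 and 166 CPM at sufficient phosphate. Its midsections stood higher than its tips in both conditions, at 507 ± 100.5 CPM at limiting and 488 ± 151 CPM at sufficient phosphate (SD, n = 4 each). Solyc02g065680.3.1 averaged 298 ± 84.5 CPM in limiting tips and 133 ± 19.1 CPM in sufficient tips (SD, n = 4 each), with a tip ratio of 2.23. Solyc06g076140.3.1 averaged 285 ± 101 CPM in limiting tips and 137 ± 39.5 CPM in sufficient tips (SD, n = 4 each). Its gap was narrow, with the lowest limiting tip at 190.3 CPM and the highest sufficient tip at 177 CPM. In 31.2% of M82 libraries its count was not whole. Neither Solyc03g096840.3.1 nor Solyc06g076140.3.1 met the rule without sufficient replicate 4. The tip ratio of Solyc06g076140.3.1 was then 1.91, under the bound of 2. That of Solyc03g096840.3.1, where replicate 4 was the highest sufficient tip, rose to 2.80. Solyc03g096840.3.1 failed instead on the ceiling of 4 for sufficient midsections over sufficient tips. Across the list, 31 members averaged at least 100 CPM in limiting tips and 34 under 10 CPM, between 5.03 and 463 CPM.

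At sufficient phosphate 127 of the 217 were at least 2-fold higher in midsections than in tips by the ratio with 1 CPM added, 82 lay between, and 8 were at least 2-fold higher in tips. Without sufficient tip replicate 4 these counts were 97, 110 and 10, so the group higher in midsections was then no longer the larger one. Among all genes tested 21.8% were at least 2-fold higher in sufficient midsections, and 19.8% without that replicate. The rule used both groups, so nothing is read from these counts. In 68 members every sufficient midsection library lay above every sufficient tip library, and in 72 without that replicate, where 12.6% of all genes tested did so. The rule excludes genes at 4-fold or more, and 182 genes failed on that condition alone. The members are called tip risers here for their difference between tips, not for a higher level in tips than in midsections.

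Limiting tips were also set against sufficient midsections. The rule and the cut placed sufficient midsections from 2-fold to under 4-fold above sufficient tips, and limiting tips at least 2-fold above those tips. Closeness of limiting tips to sufficient midsections is thus in part built into the choice, and nothing is read from the counts. Of the 127 members higher in sufficient midsections, 95 had a limiting tip mean within 1.5-fold of their sufficient midsection mean, 20 stood more than 1.5-fold above it and 12 more than 1.5-fold below it. Their summed level was 8483 ± 580.3 CPM in limiting tips and 3299 ± 748 CPM in sufficient tips (SD, n = 4 each). The same sum was 11182 ± 351 CPM in limiting midsections and 9445 ± 460.2 CPM in sufficient midsections (SD, n = 4 each). In these genes the low group was the sufficient tip. By library, limiting tips summed to 7963 to 9191 CPM, below every limiting midsection, at 10830 to 11533 CPM. They overlapped sufficient midsections, at 8957 to 9992 CPM.

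The 82 members between the bounds summed to 3354 ± 288 CPM in limiting tips and 1252 ± 385 CPM in sufficient tips (SD, n = 4 each). Their midsections were 2236 ± 166 CPM at limiting and 1814 ± 290.2 CPM at sufficient phosphate (SD, n = 4 each), so here the limiting tip was the high group. These subgroups were cut from the values shown, so their sums are a description.

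**Figure D3:**
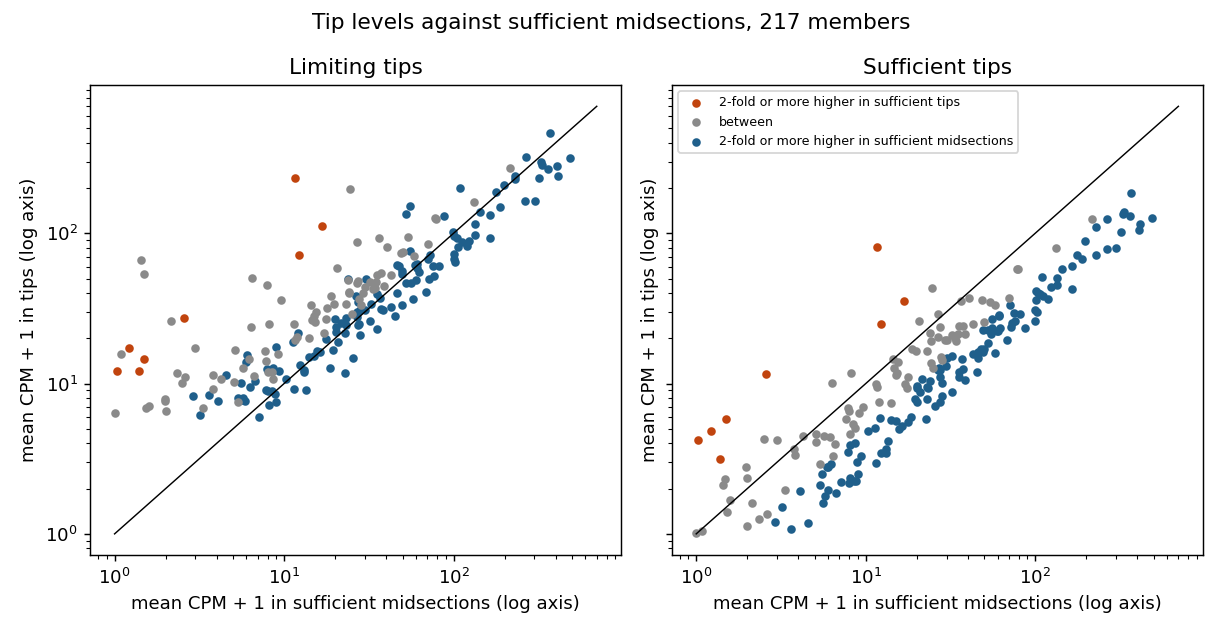
Mean CPM with 1 added in limiting tips (left) and in sufficient tips (right) against the mean in sufficient midsections, on log axes, for the 217 members; the line marks equal levels and colours mark the 8, 82 and 127 members by position at sufficient phosphate. In limiting tips the 127 members that are higher in sufficient midsections lie along the line, and in sufficient tips they lie below it.

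The 8 members higher in tips were Solyc01g006660.2.1, Solyc06g060830.3.1, Solyc03g122330.1.1, Solyc09g074430.3.1, Solyc04g005070.3.1, Solyc06g053715.1.1, Solyc02g087090.3.1 and Solyc10g085225.1.1. Solyc01g006660.2.1 was the most abundant. It had 145, 237, 309.6 and 241 CPM in limiting tips, against 76.8, 107, 86.9 and 49.4 CPM in sufficient tips. Every tip library lay above every midsection library, where it held 5.63 to 9.01 CPM at limiting and 4.35 to 17.3 CPM at sufficient phosphate. In 93.8% of M82 libraries its count was not whole, so its level is uncertain.

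Solyc06g060830.3.1 had 40.8, 24.8, 18.2 and 21.2 CPM in limiting tips, against 16.6, 4.89, 17.4 and 3.55 CPM in sufficient tips. The lowest limiting and the highest sufficient library nearly met, and its midsections stayed at 0 to 3.18 CPM. Solyc03g122330.1.1 had 18.9, 11.1, 8.46 and 6.004 CPM in limiting tips, against 1.12, 5.84, 5.79 and 0 CPM in sufficient tips. It was close to absent from midsections, with at most 0.794 CPM at limiting and a single count over the 4 libraries at sufficient phosphate. Solyc02g087090.3.1 had 112, 86.4, 129.9 and 114 CPM in limiting tips, against 33.2, 60.2, 37.3 and 6.398 CPM in sufficient tips, and Solyc10g085225.1.1 averaged 71.0 ± 7.54 CPM in limiting tips and 23.8 ± 10.3 CPM in sufficient tips (SD, n = 4 each). Each held less in midsections, with means of 8.57 to 27.6 CPM at limiting phosphate. Of the 8, 7 met the rule without sufficient replicate 4.

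In 42 members the limiting tip was the highest site at limiting phosphate as well, with all limiting tips above all limiting midsections and a ratio of 2 or more. Among all genes tested 8.44% met that condition. They comprised the 8 tip-higher members, 30 of the members between the bounds and 4 that were higher in sufficient midsections, and 31 of the 42 met the rule without sufficient tip replicate 4. The widest ratios of limiting tips over limiting midsections belonged to Solyc10g085170.2.1 at 39.4, Solyc01g006660.2.1 at 27.03 and Solyc09g008670.3.1 at 24.2. Summed over the 42, limiting tips held 1372, 1421, 1691 and 1627 CPM and sufficient tips 456, 595, 487 and 169 CPM. Limiting midsections held 327, 349, 310.3 and 301 CPM and sufficient midsections 469, 414, 314 and 432 CPM. Outside limiting tips the 3 groups overlapped in these sums. In 76 of the 217 members, by contrast, the limiting midsection mean lay above the limiting tip mean.

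In midsections the members moved in both directions, and the rule itself kept any rise small, with a ratio below 2. Summed over all members, every limiting midsection library still lay above every sufficient one, as given above. The ratio of limiting over sufficient midsections had a median of 1.08. It lay between 1 and 2 in 125 members, between 0.5 and 1 in 85 and at 0.5 or less in 7. All limiting midsections lay above all sufficient ones in 16 members, where 6.94% of all genes tested did so, and below them in 4, where 3.91% did so.

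The members lowest at limiting phosphate in midsections had opposite directions at the 2 positions. Solyc08g081450.3.1 had 64.3, 36.5, 37.6 and 35.7 CPM in limiting tips, against 33.7, 31.5, 14.2 and 2.84 CPM in sufficient tips. In midsections it had 13.8, 11.8, 13.02 and 11.7 CPM at limiting and 41.8, 33.5, 29.5 and 46.0 CPM at sufficient phosphate. Neither pair of groups overlapped, and the midsection difference was the clearer of the 2, since the tip groups were separated by only 1.06-fold. Without sufficient tip replicate 4 it did not meet the rule.

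Solyc06g073000.3.1 had 11.9, 12.3, 11.4 and 8.01 CPM in limiting tips, against 4.94, 5.37, 5.15 and 2.13 CPM in sufficient tips. In midsections it had 0.265, 3.75, 3.08 and 2.04 CPM at limiting and 5.80, 6.82, 13.8 and 3.29 CPM at sufficient phosphate, where the groups overlapped. Solyc02g090400.3.1 had the lowest midsection ratio, 0.312, but it rests on 1 library. Its sufficient midsections held 0.118, 4.40, 45.2 and 0.235 CPM, with 1 high value, against 4.67, 3.48, 3.34 and 1.30 CPM in limiting midsections. The other 4 members at 0.5 or less, Solyc06g082960.3.1, Solyc08g062760.1.1, Solyc08g081940.3.1 and Solyc07g042750.3.1, had midsection ratios of 0.441 to 0.488.

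**Figure D4:**
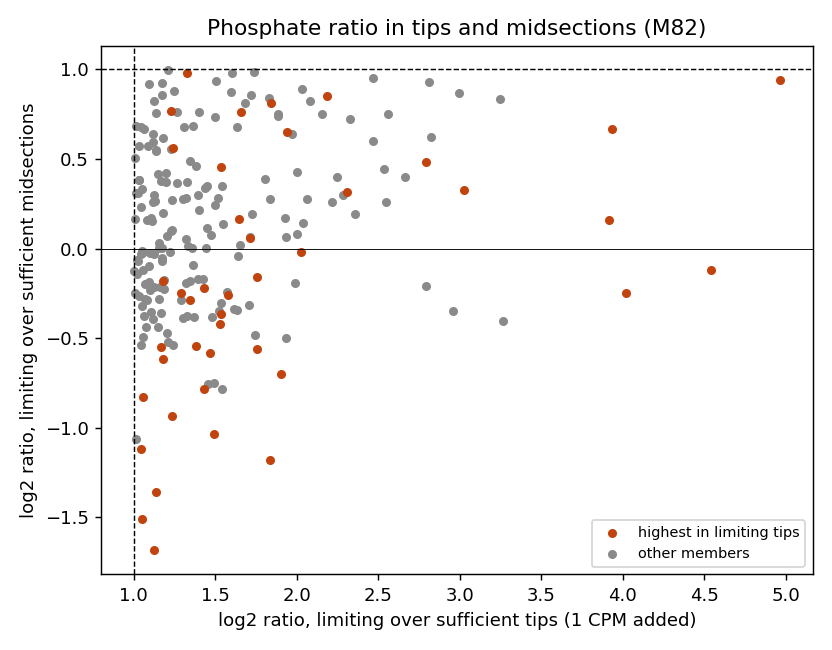
Log2 ratio of limiting over sufficient midsections against log2 ratio of limiting over sufficient tips, with 1 CPM added to each mean, for the 217 members. Dashed lines mark the rule's bounds of 2-fold. Coloured points are the 42 members with the limiting tip as the highest site at limiting phosphate. Tip ratios run from 2.00 to 31.2, and midsection ratios spread on both sides of equality.

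In the M82 fit of edgeR (quasi-likelihood F test, Benjamini-Hochberg adjusted p under 0.05), 35 of the 216 members tested were called higher in limiting tips and 0 lower. Among all 18275 genes 1.22% were called higher and 0.202% lower. The rule used this contrast, so nothing is read from the count, which also shows that most members were not called. The count was 27 without sufficient tip replicate 4, 22 without sufficient replicate 3, 21 without limiting replicate 3 and 16 without limiting replicate 4. A fit of the tips alone called 20 and DESeq2 called 64. Of the 35, 28 were midsection-higher members, 6 lay between and 1 was tip-higher. In midsections 0 members were called by edgeR, where 0.958% of all genes were called higher and 0.471% lower. At an unadjusted p under 0.05 there were 8 higher and 5 lower (3.70% and 2.31% of those tested), where 6.12% of all genes were higher and 4.63% lower. DESeq2 called 2 members and 3.22% of all genes, edgeR on the midsections alone called 3 members, and without sufficient tip replicate 4 it called 1. On simulated counts the edgeR test recovered 6% of 2-fold changes in M82 tips and 2% in midsections, so most changes of that size would be missed.

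The edgeR interaction of phosphate with position was called in 5 members, all with a higher response in tips, where 0.646% of all genes were called in that direction. The count depended on single libraries. It was 2 without limiting tip replicate 3 or limiting midsection replicate 2, and 3 without limiting tip replicate 4 or limiting midsection replicate 1, 3 or 4. It was 8 without sufficient tip replicate 4 or sufficient midsection replicate 3, and DESeq2 called 14. The 5 were Solyc10g085170.2.1 and Solyc01g006660.2.1, described above, Solyc05g053620.3.1, Solyc02g083345.1.1 and Solyc01g106780.3.1. Solyc05g053620.3.1 had 165, 127, 157 and 155 CPM in limiting tips, against 23.6, 16.6, 27.7 and 14.2 CPM in sufficient tips. The groups were far apart, with a gap of 4.48-fold. Its midsections were 71.5 to 101 CPM at limiting and 21.2 to 85.7 CPM at sufficient phosphate, overlapping. Solyc02g083345.1.1 averaged 70.6 ± 22.3 CPM in limiting tips and 24.5 ± 9.56 CPM in sufficient tips (SD, n = 4 each), with the opposite order in midsections, 42.2 ± 8.99 CPM at limiting and 71.8 ± 21.3 CPM at sufficient phosphate (SD, n = 4 each). Solyc01g106780.3.1 likewise averaged 238 ± 45.1 CPM in limiting tips and 114 ± 54.0 CPM in sufficient tips, against 293 ± 39.8 CPM in limiting and 412 ± 116 CPM in sufficient midsections (SD, n = 4 each). For tips against midsections at sufficient phosphate, edgeR called 4 members higher and 74 lower, where 13.7% of all genes were called in each direction. A fit of those 2 groups alone called 42 in all.

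Near the bounds the members hardly differed from genes left out. Just inside the tip ratio of 2 stood Solyc01g091040.3.1 at 2.00, Solyc05g052750.3.1 at 2.01 and Solyc04g078090.3.1 at 2.01. Just outside it stood Solyc09g066210.3.1 at 1.99, Solyc02g084740.3.1 at 1.99 and Solyc07g040890.1.1 at 1.98. For sufficient midsections over sufficient tips, Solyc11g069660.2.1 was inside at 3.94 and Solyc10g081140.2.1 outside at 4.05. For the midsection ratio, Solyc09g005500.3.1 was inside at 2.00 and Solyc08g077080.1.1 outside at 2.01. The requirement of no overlap did most to narrow the list, since 589 genes failed on it alone, and 60 members met the rule whichever of the 16 M82 libraries was left out.

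By the chromosome number in the ID, members were spread over the genome, with 42 on chromosome 1 (19.4% of members, 12.9% of genes tested) and 25 on chromosome 6 (11.5% and 8.93%). Few were neighbours. The pairs Solyc01g097810.3.1 with Solyc01g097820.3.1, Solyc05g053610.3.1 with Solyc05g053620.3.1, and Solyc06g076130.3.1 with Solyc06g076140.3.1 had adjacent IDs, and 3 more pairs had 1 ID between them. Adjacent members did not share a level. Solyc05g053610.3.1 had 212, 206, 261 and 277 CPM in limiting tips, against 98.9, 123, 84.1 and 129 CPM in sufficient tips, a ratio of 2.18 where its neighbour's was 7.07. In 59 members (27.2%) at least 1 M82 count was fractional, where 28.4% of all genes with a mean of at least 5 CPM had one.

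The Pennellii libraries took no part in the choice of members and give the one comparison that is independent of it. They were uneven in depth. Limiting tip replicate 3 and sufficient midsection replicate 1 were identical in every gene and were left out, which leaves 14 libraries. The limiting tips used held 4983619, 1529463 and 1859241 counts, against 894656, 46018, 1323408 and 6225 counts in sufficient tips. A single count stood for 161 CPM in the shallowest sufficient tip, and 170 members had no count there. On simulated counts of these depths the Pennellii tip test recovered 0% of 4-fold and 20% of 16-fold changes, so a response of the size seen in M82 would mostly not be detectable. Levels are not compared between the species.

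Of the 217 members, 164 were tested in Pennellii, and limiting phosphate raised 0 of them in tips and lowered 1 (edgeR quasi-likelihood F test, Benjamini-Hochberg adjusted p under 0.05). Of all 13450 genes tested 0.305% were called higher and 0.379% lower. At an unadjusted p under 0.05, 11 members were higher and 5 lower, 6.71% and 3.05% of those tested, where 9.56% of all genes were higher and 3.99% lower. DESeq2 called 1 member and 0.471% of all genes. The median log2 fold change was 0.72 in members and 0.51 in all genes, and 64.6% of members and 62.6% of all genes had a positive one. With RLE scaling in place of TMM, which shifts all genes, the medians were 0.32 in members and 0.17 in all genes. All limiting tips lay above all sufficient tips in 9 members, where 6.19% of all genes did so, and below them in 1, where 0.372% did so. Among libraries of at least 100000 counts, 15 members were higher throughout and 18 lower throughout, where 9.16% and 9.35% of all genes were. Read against those shares, the counts are no result particular to the members.

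Summed over the members, limiting Pennellii tips held 12272, 12826 and 13381 CPM, against 10534, 11346, 12926 and 11007 CPM in sufficient tips, and the groups overlapped. The 172 midsection genes, chosen in M82, summed to 5595 to 10709 CPM in sufficient Pennellii tips and 11533 to 14130 CPM in the Pennellii midsections used. Limiting tip replicate 4 lay above all of these, at 36746 CPM, against 8317 and 11132 CPM in the other limiting tips used. The cause was not tested. The median over the members was 1.61 CPM in limiting tip replicate 4, against 14.05 and 17.7 CPM. Without that library the median log2 fold change was 0.30 in members and 0.34 in all genes.

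**Figure D5:**
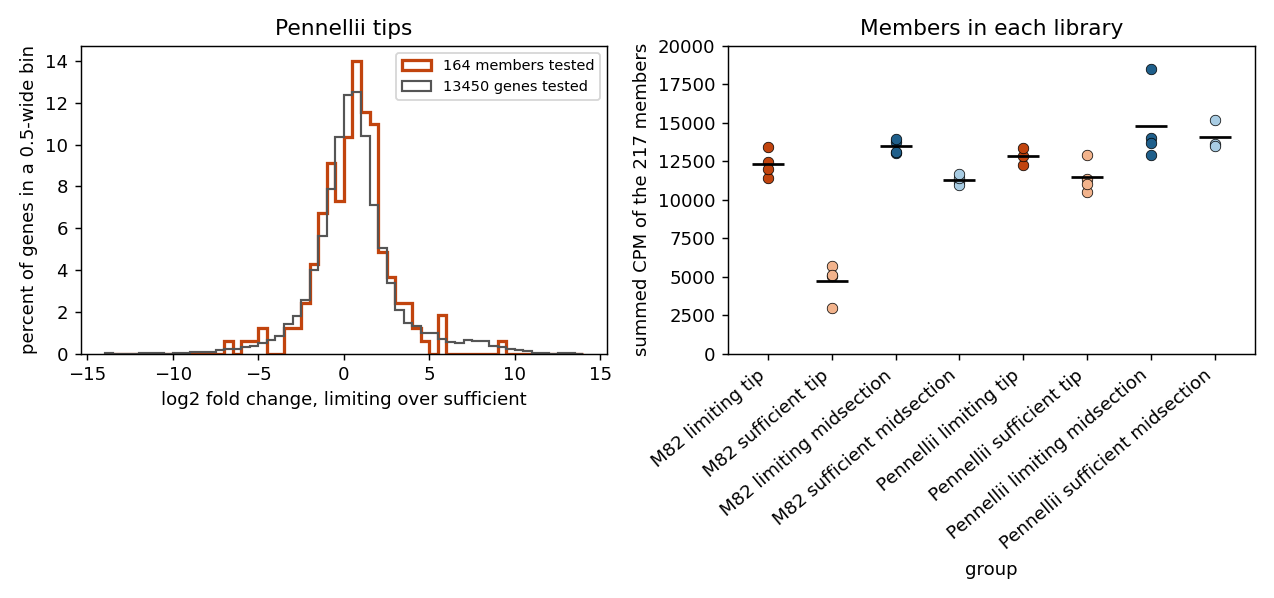
Left, the share of the 164 members tested and of all 13450 genes tested in each 0.5-wide bin of log2 fold change, limiting over sufficient, in Pennellii tips; right, the summed CPM of the 217 members in each library, with a bar at the group mean. The distributions overlap widely, and in the sums the limiting and sufficient tips overlap in Pennellii. In M82 they do not, as the rule required.

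The called member ran opposite to its direction in M82. Solyc06g034020.3.1 had 20.9, 17.7 and 2.69 CPM in limiting Pennellii tips, against 292, 782, 2.27 and 0 CPM in sufficient Pennellii tips. The high values were those of sufficient replicates 1 and 2. Sufficient replicate 3 was as low as the limiting tips, and the groups overlapped. Sufficient replicate 4, where a single count stood for 161 CPM, was too shallow to show such a level. The edgeR log2 fold change, -4.61 ± 1.24 (SE), had an adjusted p of 0.0428, which was 0.339 without sufficient replicate 2, a library of 46018 counts, and lay between 0.00402 and 0.443 over all alternatives. In M82 the same gene had 59.3, 44.9, 33.6 and 44.2 CPM in limiting tips, against 30.5, 17.3, 19.95 and 2.84 CPM in sufficient tips. It was also the one member whose edgeR interaction of phosphate and position was called in Pennellii, at a log2 difference of -7.09 ± 1.66 (SE) and an adjusted p of 0.0123, where 0.104% of all genes were called higher and 0.156% lower. That call was lost without sufficient tip replicate 2 (adjusted p 0.214) and without sufficient midsection replicate 2 (0.0608) or 4 (0.0714). It was also lost with libraries of at least 100000 counts (0.290) and with the replicate block (0.800), and over all alternatives the edgeR or DESeq2 adjusted p lay between 0.000513 and 0.800.

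On the rising side Solyc01g097520.3.1 had the smallest p. It had 288, 181 and 363 CPM in limiting Pennellii tips, against 54.8, 0, 24.9 and 0 CPM in sufficient Pennellii tips. The groups did not overlap, but 2 of the sufficient tips, those of 46018 and 6225 counts, held no count at all. The edgeR log2 fold change, 3.65 ± 1.15 (SE), had an adjusted p of 0.0988, short of the threshold, which ranged from 0.0411 to 0.379 over the alternatives. In M82 it was one of the 42 members with the limiting tip as the highest site at limiting phosphate. There it had 178, 137, 257 and 214 CPM in limiting tips, against 20.9, 46.9, 72.7 and 29.1 CPM in sufficient tips.

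Solyc01g099960.3.1 had 2.81, 2.62 and 58.1 CPM in limiting Pennellii tips and no count in sufficient Pennellii tips. Counts and depths pooled over each group put it at least 11.4-fold higher, with 3 counts over the sufficient group as the floor, but most of that signal came from limiting replicate 4, without which the bound was 2.09-fold. Without sufficient replicate 3 it was 4.75-fold, without limiting replicate 1 25.0-fold and without sufficient replicate 1 6.90-fold. Its edgeR adjusted p was 0.128. Solyc06g036080.3.1 had 20.9, 33.3 and 76.4 CPM in limiting Pennellii tips, against 0, 0, 2.27 and 0 CPM in sufficient Pennellii tips, without overlap, and an edgeR adjusted p of 0.172.

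Both further members with the smallest p on the falling side rested on few libraries. Solyc01g095810.3.1 had 0.201, 1.70e-05 and 0 CPM in limiting Pennellii tips, against 2.05, 10.8, 36.8 and 0 CPM in sufficient Pennellii tips, where the shallowest library, without a count, overlapped the limiting ones, and an edgeR adjusted p of 0.167. Solyc08g077560.3.1 held 0.1003, 0.654 and 0.538 CPM in limiting Pennellii tips, and in sufficient tips it was found in replicate 3 alone, at 90.7 CPM, with an edgeR adjusted p of 0.167. Without that library its log2 fold change was 3.47, of the opposite sign.

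Of the 10 members with the largest tip ratio in M82, 2 were tested in Pennellii, and the rest were too low in most Pennellii libraries. Solyc10g085170.2.1 reached at most 0.401 CPM in the Pennellii tips used and Solyc04g015030.3.1 at most 1.08 CPM. Of the 42 members with the limiting tip as the highest M82 site at limiting phosphate, 23 were tested in Pennellii tips. Of these, 15 had a positive log2 fold change and the median was 0.94, where 62.6% of all genes were positive and their median was 0.51. At an unadjusted p under 0.05, 3 of the 23 were higher and 0 lower, where 9.56% of all genes were higher and 3.99% lower, so these counts lie near the background.

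In Pennellii midsections edgeR called 0 members in either direction at limiting phosphate, where 0.112% of all genes were called higher and 0.00743% lower. At an unadjusted p under 0.05, 2 were higher and 2 lower (1.22% of those tested each), where 2.31% of all genes were higher and 1.3% lower. DESeq2 called 0 members and 0.171% of all genes. The median log2 fold change was -0.27 in members and -0.15 in all genes. For tips against midsections at sufficient phosphate, edgeR called 0 members in Pennellii, where 0.216% of all genes were called higher and 0.0223% lower. At an unadjusted p under 0.05, 3 were higher and 10 lower in tips (1.83% and 6.10% of those tested), where 2.53% of all genes were higher and 7.57% lower. DESeq2 called 0 members and 0.838% of all genes. The 127 members that were higher in sufficient M82 midsections had 99 tested, with a median log2 difference of -0.79 for Pennellii tips against midsections, beside -0.38 in all genes. At an edgeR unadjusted p under 0.05, 2 of the 99 were higher and 6 lower in tips, near the 2.53% and 7.57% of all genes. Medians moved with scaling. Over all members tested the median was -0.58 with TMM and -0.26 with RLE, where all genes had -0.38 and -0.08.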

How the data were processed

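Root tips and midsections gave 32 BrAD-seq libraries (3' ends, strand kept, single reads of 50 bases), per the labels' protocols. Each species has 1 deposited table of estimated counts by gene model, some of them fractional, which the authors made; how fractions arose is not stated in the labels. The submitters' processing notes list FastQC, Bowtie 1.2.2, edgeR and limma, with no build. According to its name, the Pennellii table was mapped to M82, and reads that differ from M82 may be missing from it. The series' design text calls the replicates biological. All columns had a sample, with 0 unused.

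The rule was applied to CPM of the deposited values, with no further scaling. Rounded counts were tested with edgeR 4.0.16 (R 4.3.3): TMM scaling, filterByExpr with minimum count 10 and total 15, a robust quasi-likelihood F test, and Benjamini-Hochberg adjustment over all genes tested at 0.05, with the 4 groups of a species fitted together. Biological coefficients of variation were 0.690 (M82) and 1.15 (Pennellii). Each SE is the absolute log2 fold change over the root of F. Shares of all genes with separated groups are over genes that passed the filter. DESeq2 shares are over the genes it gave an adjusted p. Bounds use a floor of 3 counts and cover counting error alone, as reads carried no molecular identifiers. Tests were checked on simulated counts with 200 changed genes. In M82 tips 6% of 2-fold and 44% of 4-fold changes were recovered, and in M82 midsections 2% and 34%. Alternatives were RLE scaling, DESeq2 1.42.0, no low-count filter, fits of only the groups compared, the replicate block, libraries of at least 100000 counts, the identical columns kept, other forms of the rule and each library left out.

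The members, subgroups and lists were chosen with earlier results of these data known. Named genes were the 10 members with the largest tip ratio, the 5 most abundant in limiting tips, the 3 with the smallest p in each direction in Pennellii tips, those nearest the bounds, the 3 with the lowest midsection ratio and the 3 with the largest ratio of sufficient tips over sufficient midsections. Members in small counts, of calls or subgroups, were named after their values were seen. Of the 34843 IDs, 0 matched the RefSeq table of assembly SLM_r2.1, so lists by function or cell type, sequences and promoter motifs are not given.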

Additional observations from a re-analysis of the deposited data

Results flagged for a closer look

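In groups of 4 libraries a value was marked when its gap to the nearest other, divided by the range of the group, passed Dixon's critical value for 4 samples. This marked 18 of 102 groups, where chance marks about 1 in 20, and many are groups in which a single library held counts. Among the medians over the members, limiting M82 tip replicate 3 lay below its group at 27.9 CPM (gap ratio 0.909), sufficient M82 tip replicate 4 lay below its group at 2.84 CPM (0.852), and sufficient Pennellii tip replicate 3 lay above its group at 17.0 CPM (0.869).

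In sufficient M82 tips the gap ratio was 1 for Solyc07g006570.3.1, Solyc04g015030.3.1, Solyc02g088100.3.1 and Solyc06g071540.3.1, each counted in the deepest library alone. It was 0.863 for Solyc06g060710.3.1, with replicate 3 high, and 0.867 for Solyc06g073000.3.1, with replicate 4 low. In limiting M82 tips replicate 1 of Solyc08g081450.3.1 was high (0.936). In limiting M82 midsections replicate 4 was high for Solyc06g060710.3.1 (0.881) and Solyc06g071540.3.1 (0.843).

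In sufficient M82 midsections the ratio was 0.946 for Solyc07g006570.3.1 with replicate 4 high, 0.889 for Solyc06g076140.3.1 and 1 for Solyc03g122330.1.1 with replicate 1 high, and 0.905 for Solyc02g090400.3.1 with replicate 3 high. In sufficient Pennellii tips it was 1 for Solyc06g036080.3.1 and Solyc08g077560.3.1, with counts in replicate 3 alone.

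The phosphate response differed between tips and midsections of M82 in 5 members by the edgeR interaction, which the choice of members used. The log2 differences were 5.39 for Solyc10g085170.2.1, 2.32 for Solyc02g083345.1.1, 2.25 for Solyc05g053620.3.1, 2.11 for Solyc01g006660.2.1 and 1.57 for Solyc01g106780.3.1. In Pennellii, where the rule played no part, Solyc06g034020.3.1 had a log2 difference of -7.09 (edgeR adjusted p 0.0123), in groups that overlap within tips.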

How the results depend on the processing

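The list depends on single tip libraries. Leaving out each M82 library in turn, the rule found 202 to 375 genes. It found 337, 358, 367, 375 and 332 without limiting tip replicates 1 and 2 and sufficient tip replicates 1, 2 and 3, since fewer libraries make separation easier. With TMM scaling it found 187 genes, 168 of them members, with RLE scaling 168 (161), with 0.5 CPM added 200 (198) and with rounded counts 217 (217).

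DESeq2 called 64 members in M82 tips, 2 in midsections and 14 for the interaction. Fits of only the groups compared called 20 in M82 tips, 3 in midsections and 42 for tips against midsections, and in Pennellii 2, 1 and 1. Other moves were in Pennellii. With libraries of at least 100000 counts 0 members were called in tips and 0 for the interaction, and RLE scaling called 1 for tips against midsections. The median log2 fold change in tips was 0.32 with RLE scaling and 0.42 with the deep libraries, where all genes had 0.17 and 0.35.

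Without single libraries, M82 calls numbered 16 to 42 in tips (21 and 16 without limiting replicates 3 and 4, 22 without sufficient replicate 3), 0 to 1 in midsections, 2 to 8 for the interaction and 67 to 80 for tips against midsections. Members with a gap of at least 2-fold numbered 22 to 44. Pennellii calls numbered 0 to 3 in tips, 0 in midsections, 0 to 2 for the interaction and 0 to 2 for tips against midsections, and the median log2 fold change 0.30 to 1.63 (all genes 0.34 to 1.13), highest without sufficient tip replicate 3. Solyc08g077560.3.1 ranged from -6.76 to 3.47, reversed without that replicate. The cause of these moves was not tested.

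The labels tie replicate numbers to no shared source. Deviations of same-numbered replicates from their group means correlated at -0.0371 to 0.0964 in M82 and -0.0317 to 0.152 in Pennellii. No such pair in M82 and few in Pennellii were over 0.1, so the numbers were not taken to pair samples. As a hint from the data, between limiting M82 tips and midsections every same-numbered pair (0.0729 to 0.0964) lay above every other (-0.0719 to 0.00716), and in Pennellii limiting midsection replicate 1 correlated at 0.143 with limiting and 0.152 with sufficient tip replicate 1. With the replicate block, 34 members were called in M82 tips, 0 in midsections, 5 for the interaction and 72 for tips against midsections. In Pennellii the block called 0 in tips and 0 for the interaction, with a median of 1.16 (all genes 0.91). Depth limits the Pennellii results, and a member without a count there may be present.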
